A study of Homo sapiens with 4 samples.

Results

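NEDD4L, FYN, MME, MTUS1 and CARD14 are 5 genes outside the pigment programme around which binding sites of the transcription factor TBX3 lay several deep near annotated start sites. They were chosen by the measured peak positions themselves: each had 5 or more summit pairs, 1 summit from each replicate within 200 bp of the other, within 10 kb of a transcription start site (TSS). A total of 24 genes met this limit, among them others outside the pigment programme such as PDE4B and VGLL4, and only these 5 were taken. Every entry of either peak list that carried 1 of these gene names was then taken, at any distance. That gave 51 of 32479 summits in replicate 1 and 74 of 40494 in replicate 2, which formed 47 of the 22702 summit pairs. Because recurrence and distance to a TSS picked the genes, their counts within 10 kb are a description and carry no test.

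The data were ChIP-seq of TBX3-3xHA, a TBX3 protein carrying 3 copies of the HA peptide tag, in 501mel cells, an established human melanoma line. The ChIP group had 2 samples, precipitated with an antibody to HA (12CA5), and the input group had 2 samples of sheared chromatin that were not analysed here. All 4 came from the same line grown in the same medium, and the labels name no treatment and no promoter that drives the tagged protein. Nothing in the labels says that the replicates came from separate cultures, so the spread between them may be technical. The protocol sheared chromatin to 200 to 400 bp. Read depth was unknown, and the deposited peak score had no stated scale, running from 2.01 to 789 in replicate 1 and from 2.00 to 806 in replicate 2, so scores are compared only within a list. A score percentile is the share of the peaks of the same list that lie below a peak, with ties counted midway. The files hold no expression, so the melanoma identity of the cells could not be checked against marker genes.

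TBX3 is a T-box factor best known as a repressor in development, and it binds DNA through a domain that recognises a short motif ending in GTGTGA. ChIP-seq records where the tagged protein was crosslinked to chromatin, and a site near a gene does not by itself say that the gene is controlled from it. The 5 genes share no single pathway. NEDD4L is a HECT-type ubiquitin ligase that marks membrane proteins, such as the epithelial sodium channel, for removal. FYN is a membrane-anchored tyrosine kinase of the SRC family. MME encodes neprilysin (CD10), a cell-surface zinc peptidase that cleaves small signalling peptides. MTUS1 encodes microtubule-associated proteins, of which some interact with the angiotensin II type 2 receptor. CARD14 is a scaffold protein that, with BCL10 and MALT1, leads to NF-kappaB signalling, chiefly in keratinocytes.

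A single promoter window of these genes held a summit, and its sequence is shown because that summit was the closest of all to a start site of the deposited annotation. RefSeq promoter windows, 250 bp before to 50 bp after a start, were at hand for NEDD4L, FYN and MME, 13 windows in all, which did not include the outermost MME start. The window at an inner NEDD4L start site contained a replicate 2 summit at 58221515 and no replicate 1 summit. The 250 bases before the RefSeq start site, 58221571, follow (GRCh38.p14, plus strand, chr18:58221321-58221570), with the 21 bases centred on the summit, bases 185 to 205, in capitals.
NEDD4L inner promoter: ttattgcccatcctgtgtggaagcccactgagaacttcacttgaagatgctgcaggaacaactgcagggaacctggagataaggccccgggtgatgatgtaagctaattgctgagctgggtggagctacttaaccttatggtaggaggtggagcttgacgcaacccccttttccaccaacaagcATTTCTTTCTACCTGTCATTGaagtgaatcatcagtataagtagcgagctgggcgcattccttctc

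That summit lay 56 bp upstream of the RefSeq start site and 7 bp upstream of the start used in the deposited annotation, 58221522. It scored 4.90, at percentile 13.7 of its list, so the closest summit to any NEDD4L start was a weak one without a partner. The T-box motif GGTGTGA, searched on both strands, was in 0 of the 13 windows, against 3.45% of 34943 promoter windows in the genome. Its shorter core GTGTGA, which every GGTGTGA match also contains, was likewise in 0 of 13, against 12.0%. Among hexamers bound by MITF, CATGTG was in 2 of the 13 windows (11.1% of all windows) and CACGTG in 0 (7.23%). The SOX motif ACAAAG was in 1 (16.1%) and the AP-1 motif TGANTCA in 1 (7.72%). These letters describe the windows only, since no summit pair lay in any of them. The 13 windows are few and some at MME overlap, so a count of 0 does not show a lack of a motif.

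**Figure D1:**
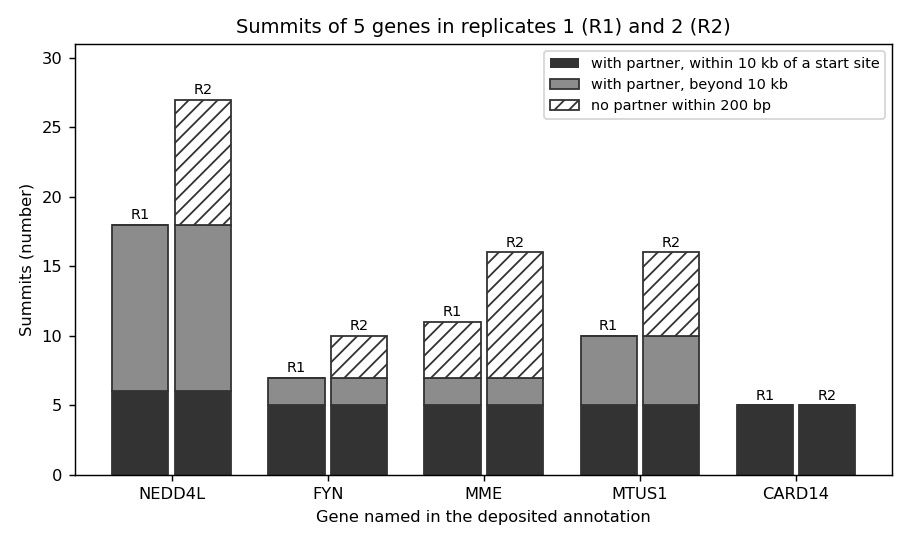
Number of summits named for each gene (y axis) in replicate 1 (R1) and replicate 2 (R2), split into those with a partner within 10 kb of a start site (dark), those with a partner farther away (grey) and those without a partner (hatched). In replicate 1 only MME had summits without a partner, 4 of 11, whereas in replicate 2 CARD14 was the only gene without any.

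Within 10 kb of a start site the genes had 26 summit pairs, 6 at NEDD4L and 5 at each of FYN, MME, MTUS1 and CARD14. Genome-wide 16.7% of the summit pairs lay this close, and only 24 of 12468 genes with any peak had 5 or more of them (0.192%). Being near a start site rarely meant being at a promoter: 4 of the 26 were within 1 kb of the start (15.4%, 95% Wilson interval 6.15% to 33.5%), against 23.3% of all 3792 pairs within 10 kb. In the promoter class of the deposited annotation there were 2 (7.69%, 2.14% to 24.1%), 1 each at NEDD4L and MME, against 15.1% of all pairs within 10 kb. Both backgrounds lay inside the wide intervals of the 5 genes. Since pairs within 10 kb picked the genes, neither share is read as a difference or as a likeness. Introns held 19 of the 26 pairs (73.1%, 53.9% to 86.3%), compared with 47.3% of all pairs within 10 kb, and the remaining 5 were intergenic. Upstream and downstream of the start site there were 13 each, so 50% were upstream (32.1% to 67.9%), against 48.5% of all pairs within 10 kb. These intervals treat sites as independent and cover counting error only.

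Most of these pairs were counted from an alternative start site inside the gene. The start site used lay more than 1 kb inside the RefSeq span of the gene for 18 of the 26 pairs (69.2%, 50.0% to 83.5%), against 34.5% of 2051 pairs within 10 kb of protein-coding genes whose strand was at hand. At NEDD4L all 6 and at MTUS1 all 5 belonged to inner start sites, at FYN 4 of 5, at MME 2 of 5 and at CARD14 1 of 5. A gene with many annotated starts has more sequence within 10 kb of some start. RefSeq listed 11 curated transcripts for NEDD4L, 4 for FYN, 7 for MME, 13 for MTUS1 and 5 for CARD14, against a median of 2 over 19974 protein-coding genes. NEDD4L, FYN, MME and MTUS1 were also long, at 357 kb, 213 kb, 160 kb and 158 kb, against a median of 24.2 kb. CARD14, at 39.3 kb, was at percentile 62.6 of length. The part of transcript number and length in the counts was not tested.

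**Figure D2:**
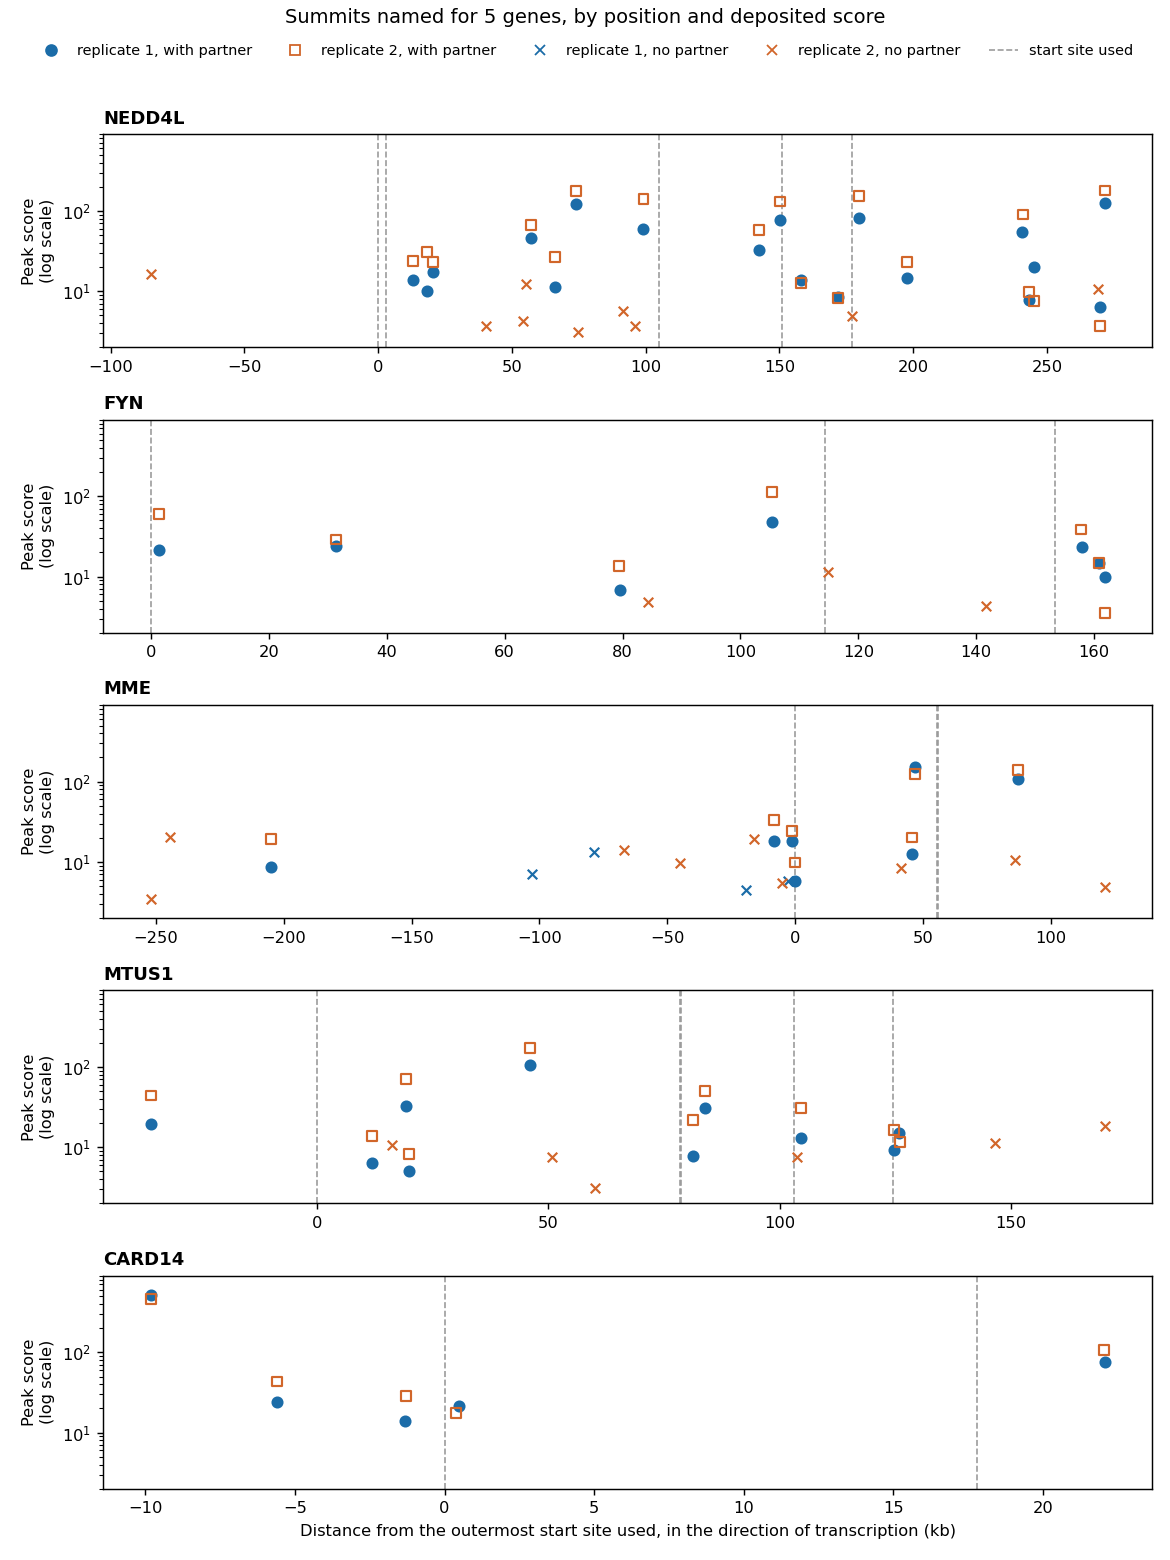
Summits of each gene by position from its outermost start site used, in the direction of transcription (x axis, kb), and deposited peak score (y axis, log scale), with dashed lines at the start sites used. Filled circles and open squares are replicate 1 and 2 summits with a partner, and crosses are summits without one. The tallest points, 516.1 and 459.5, stand upstream of CARD14, while at NEDD4L and MTUS1 no pair lies within 10 kb of the outermost start.

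NEDD4L, on chromosome 18 (58044226 to 58401540 in GRCh38.p14, a release of the hg38 assembly, plus strand), had the most sites, with 18 summits in replicate 1 and 27 in replicate 2. All 18 replicate 1 summits had a partner. Near start sites, 3 of its 6 pairs surrounded the start at 58195390. The strongest of these, in the promoter class, had summits at 58194516 and 58194506, 874 and 884 bp upstream, and scored 76.5 in replicate 1 and 131.1 in replicate 2. Another, at 58186850 and 58186773, lay 8540 and 8617 bp upstream, in an intron, and scored 33.1 and 58.3. The third was 7222 and 7155 bp downstream at 58202612 and 58202545 and scored 13.7 and 12.8. The promoter pair was thus in the top score decile of both lists, and the downstream pair was near the middle of both.

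The start at 58221522 had 2 NEDD4L pairs nearby. Summits at 58224233 and 58224264, 2711 and 2742 bp downstream in intron 1, scored 81.7 and 151.8, the highest of the 6 in both lists. Those at 58216224 and 58216171, 5298 and 5351 bp upstream, scored 8.54 and 8.35, below the median of each list. The sixth pair, at 58143579 and 58143611, lay 5754 and 5722 bp upstream of the start at 58149333 and scored 59.1 and 139.3. The pair under both medians thus lay between the pair at 58224233, in the top decile of both lists, and that at 58202612, near the middle of both. The replicate 1 summit of this weak pair was in an L2 LINE element, while its replicate 2 summit, 53 bp away, was outside repeats.

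Farther from start sites NEDD4L had 12 more pairs, of which 11 were intronic and 1 exonic. The exonic pair, at 58316002 and 58316018 in exon 6 of 29, was 94480 and 94496 bp from the start used. It scored 126.8 and 179.9, with the lowest rank sum of all pairs of this gene. An intronic pair at 58118206 and 58118241, 31127 and 31092 bp upstream of the start at 58149333, followed closely with 123.9 and 175.9. Both outscored every NEDD4L pair within 10 kb. Of the 9 replicate 2 summits without a partner, scores ran from 3.08 to 16.5, the highest at 57959530, an intergenic position 84848 bp upstream of the gene. Inside the span 1 further pair carried the name of MIR122 and was not counted among the pairs of NEDD4L.

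FYN, on chromosome 6 (111660332 to 111873452, minus strand), had 7 summits in replicate 1, all with a partner, and 10 in replicate 2. Its 5 pairs within 10 kb were all intronic. The strongest had summits at 111768125 and 111768050, 8994 and 8919 bp upstream of the inner start at 111759131, and scored 47.4 and 113.8. At the outermost start, summits at 111872056 and 111872087 in intron 1, 1396 and 1365 bp downstream, scored 21.5 and 59.9. No FYN pair was within 1 kb of a start, and only the first of these reached the top decile, in replicate 2 alone.

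The other 3 FYN pairs sat close together downstream of the inner start at 111720062. Summits at 111715561 and 111715601, in an ERVL-MaLR element, scored 23.1 and 38.6. At 111712534 and 111712559 the scores were 14.9 and 14.8. At 111711679 and 111711638 they were 10.0 and 3.57. This last pair fell from percentile 41.0 in replicate 1 to 4.93 in replicate 2, the widest shift among the 26. Beyond 10 kb there were 2 intronic pairs, 1 below the median of both lists (6.88 and 13.4 at 111793907 and 111794004) and 1 above both (24.0 and 29.0 at 111842090 and 111842024). The 3 summits without a partner, all in replicate 2, scored from 4.28 to 11.4, the highest with its summit at 111758673, 458 bp downstream of the start site at 111759131.

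MME, on chromosome 3 (155024202 to 155183729, plus strand), had 4 of its 7 pairs upstream of the gene. Upstream of its outermost start at 155024124, intergenic summits at 155015938 and 155015871, 8186 and 8253 bp away, scored 18.4 and 33.2. Summits at 155022986 and 155022936, 1138 and 1188 bp away in an ERVL element, scored 18.4 and 24.0. The pair closest to the start, 14 and 125 bp upstream at 155024110 and 155023999, was in the promoter class and scored 5.76 and 9.86. That promoter pair was under the median of both lists, the opposite of the promoter pair at NEDD4L.

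The other 2 MME pairs within 10 kb were in intron 1, upstream of the inner start at 155079647. Summits at 155071153 and 155071102, 8494 and 8545 bp away, scored 150.1 and 125.3 and had the lowest rank sum of the gene. Their neighbours at 155069965 and 155069888 scored only 12.4 and 20.2. A pair of similar strength stood beyond 10 kb in intron 3, at 155111274 and 155111270, with scores of 107.1 and 138.4. The remaining pair, at 154819210 and 154819055, was 204914 and 205069 bp upstream and scored 8.54 and 19.2. Summits without a partner numbered 4 of 11 in replicate 1, scoring 4.50 to 13.2, and 9 of 16 in replicate 2, scoring 3.43 to 20.2. The highest were intergenic, at 154945423 in replicate 1, in an L1 element, and at 154779738 in replicate 2, outside repeats. All 4 of the replicate 1 summits without a partner were in LTR or LINE elements upstream of the gene. MME was the only gene of the 5 with replicate 1 summits that lacked a partner.

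MTUS1, on chromosome 8 (17643802 to 17801521, minus strand), had 10 summits in replicate 1, all with a partner, and 16 in replicate 2. Its 5 pairs within 10 kb were all intronic, all downstream of inner start sites and outside annotated repeats. Summits at 17717151 and 17717150, 5070 and 5071 bp from the start at 17722221, scored 31.1 and 49.9, the highest of the 5. From the same start, summits at 17719713 and 17719628, 2508 and 2593 bp away, scored 7.82 and 22.1. Near the start at 17697737, summits at 17696226 and 17696332 scored 13.2 and 31.1. None of these reached the top decile of either list.

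At the innermost MTUS1 start, 17676501, summits at 17676160 and 17676230 lay 341 and 271 bp downstream and scored 9.28 and 16.3. A second pair there, at 17675074 and 17674926, scored 14.9 and 11.7, and its summits were 148 bp apart, the widest of the 26. The strongest MTUS1 site was again not near a start: summits at 17754810 and 17754823, in exon 2 of 14 and 32235 and 32248 bp from the start used, scored 105.7 and 173.1. The other 4 distant pairs were 3 in intron 1 and 1 intergenic (19.3 and 44.2 at 17836829 and 17836782). Without a partner were 6 replicate 2 summits, scoring 3.11 to 18.6. The highest of them, at 17630641, lay in a simple repeat within an intron of the neighbouring gene PDGFRL.

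CARD14, on chromosome 17 (80170030 to 80209331, plus strand), was the shortest of the genes, and each of its 5 summits in replicate 1 had a partner among the 5 in replicate 2. The choice of the gene required 5 or more pairs within 10 kb, so these 5 partners were fixed by that choice. None of its summits lay beyond 10 kb, although the strongest pair came close to that limit. Its summits, at 80160182 and 80160190, were 9810 and 9802 bp upstream of the start at 80169992 and only 8 bp apart, in intergenic sequence outside annotated repeats. With scores of 516.1 and 459.5 they ranked 38 in replicate 1 and 194 in replicate 2, far above every other site of the 5 genes. The neighbouring protein-coding gene on the other side, EIF4A3, lay 13054 bp from the replicate 1 summit, and the CARD14 name rests on the nearer start site alone.

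Between that site and the gene stood 2 weaker CARD14 pairs. Summits at 80164385 and 80164398, 5607 and 5594 bp upstream in an L1 element, scored 23.8 and 43.3. At 80168666 and 80168696, 1326 and 1296 bp upstream, scores were 14.0 and 28.9. The pair nearest to a start, at 80170468 and 80170374, lay 476 and 382 bp downstream in intron 1 and scored 21.3 and 17.5. In intron 8, summits at 80192067 and 80192035, 4267 and 4235 bp downstream of the inner start at 80187800, scored 75.0 and 105.9. CARD14 thus had 2 pairs in the top decile of both lists and, unlike the other 4 genes, none under the median of either.

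**Figure D3:**
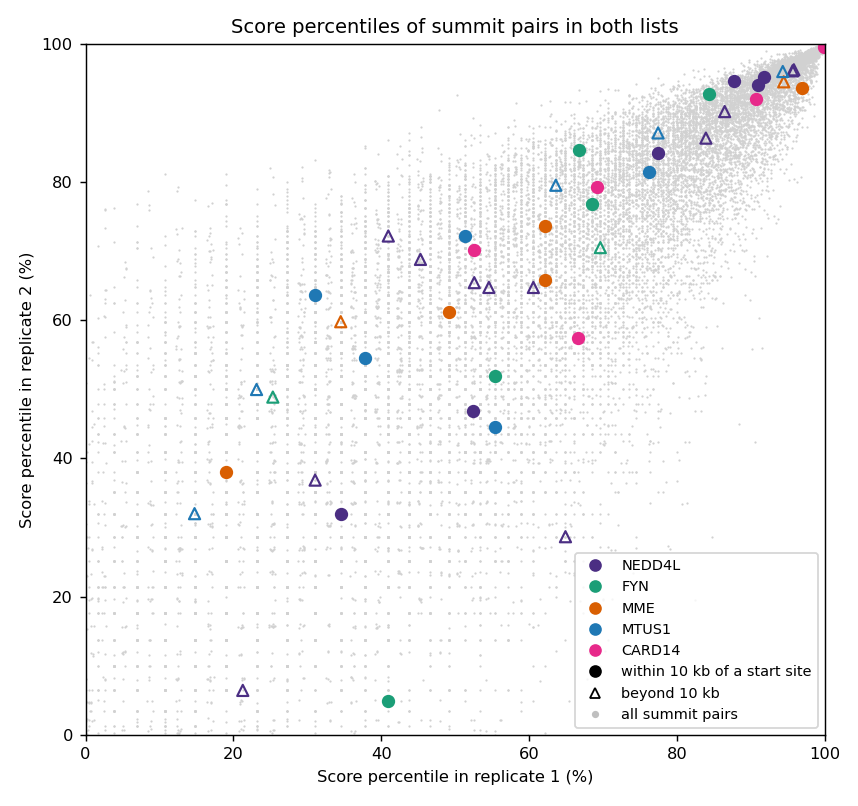
Score percentile of each summit pair in replicate 1 (x axis, %) and replicate 2 (y axis, %), with all pairs in grey and the 47 pairs of the 5 genes in colour, filled within 10 kb of a start site and open triangles beyond. The members spread over the whole range, from the CARD14 upstream pair at the top right corner to a FYN pair at percentile 41.0 and 4.93.

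Set side by side, the 26 pairs near start sites had scores much like those of other pairs at that distance. Their median percentile was 64.4 in replicate 1 and 72.9 in replicate 2, against 66.8 and 74.4 over all 3792 pairs within 10 kb. In the top score decile of both lists were 5 of the 26 (19.2%, 8.51% to 37.9%), against 15.8% of all pairs within 10 kb: 2 each at NEDD4L and CARD14 and 1 at MME. Median scores within 10 kb ordered the genes NEDD4L (46.1 and 94.7 in replicates 1 and 2), CARD14 (23.8 and 43.3), FYN (21.5 and 38.6), MME (18.4 and 24.0) and MTUS1 (13.2 and 22.1). The order was the same in both lists, but the ranges overlapped for every neighbouring pair of genes in it. Summits of a pair lay within 50 bp of each other in 13 of the 26, against 74.2% of all pairs within 10 kb, and the median offset was 50.5 bp against 26 bp. Over all pairs within 10 kb the median offset was 43 bp for those under the replicate 1 median and 13 bp in its top decile. For the 5 genes these medians were 73.5 bp over 6 pairs and 31 bp over 5, wider in both of these ranges. For pairs scoring between the 2 ranges no such median was computed. What lies behind the wider offsets was not tested.

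Sites beyond 10 kb were not used to choose the genes. Beyond 10 kb, 21 of the 24 replicate 1 summits had a partner (87.5%, 69.0% to 95.7%), against 69.7% of all summits at that distance. In replicate 2, 21 of 43 had one (48.8%, 34.6% to 63.2%), against 55.6%. NEDD4L alone held 12 of the 24 replicate 1 summits, all with a partner, and 19 of the 43 in replicate 2, 12 with a partner. CARD14 had 0 in either list. Over all distances the background was 69.9% in replicate 1 and 56.1% in replicate 2. For summits of other genes beyond 10 kb the shares were 69.6% and 55.6%, inside the interval of the 5 genes in each replicate, though in replicate 1 only just. The 3 replicate 1 exceptions were all at MME, and without that gene, a choice made after seeing the data, the shares were 100% of 19 (83.2% to 100%) and 57.6% of 33 (40.8% to 72.8%). Counting instead the summits inside the gene spans, whatever gene they were named for, gave 100% of 20 (83.9% to 100%) and 52.6% of 38 (37.3% to 67.5%). In both of these settings the replicate 1 interval lay above 69.6%, and the replicate 2 interval still held 55.6%. The shares of 69.6% and 55.6% cover summits of other genes beyond 10 kb, inside and outside gene spans. No share was computed for other genes inside their spans alone, so the span setting has no like background. The reading for replicate 1 thus turned on the MME summits upstream of the gene. Of the replicate 2 summits without a partner, at any distance, 23 of 27 were below the list median (85.2%, 67.5% to 94.1%), much as for those of other genes (82.8%).

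Some sites of the 5 genes lay in annotated repeats. Within 10 kb, 5 of the 26 replicate 1 summits of pairs were in a repeat (19.2%, 8.51% to 37.9%), against 24.4% of all pairs there. Beyond 10 kb, 4 of 21 were (19.0%, 7.67% to 40.0%), against 44.9% of all pairs there. By their replicate 2 summits, 5 of 21 were (23.8%, 10.6% to 45.1%), against 45.0%, so the background lay outside the interval in replicate 1 and just inside it in replicate 2. Among intronic pairs beyond 10 kb, where 17 of the 21 were found, the share was 23.5% (9.56% to 47.3%) for the 5 genes and 29.0% for all. That interval is too wide to tell whether intronic pairs alone differed.

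**Figure D4:**
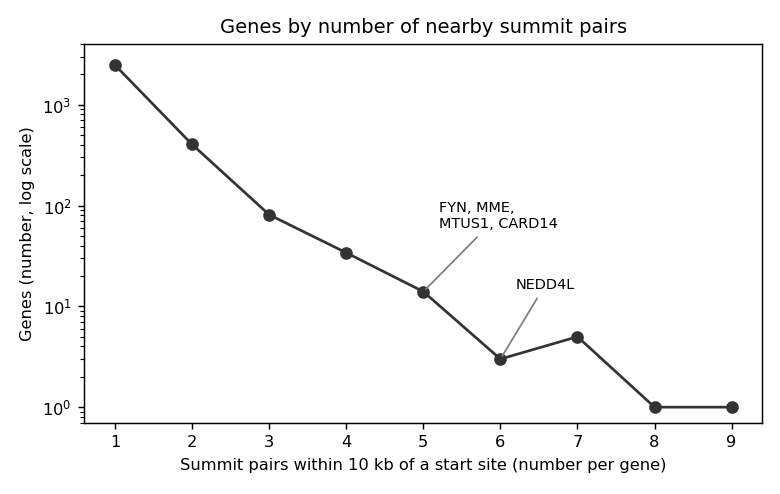
Number of genes (y axis, log scale) with each number of summit pairs within 10 kb of a start site (x axis). Of 3007 genes with at least 1 such pair, 2465 had exactly 1, while 14 genes had 5, among them FYN, MME, MTUS1 and CARD14, and 3 had 6, among them NEDD4L.

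The 24 genes that met the threshold were a mixed group. At 5 pairs, just inside it, stood CARD14, FYN, MME and MTUS1 with LOC340357, PDE4B, MIR548AQ, SPAG9, TP53TG3, LINC00211, PDE4D, PPFIBP2, VGLL4 and MIR4477A. With 6 were NEDD4L, DCT and SYTL2, with 7 MITF, TYR, TP53TG3B, LINC01762 and RNU1-2, with 8 REXO1L2P and with 9 RNU2-1. Just outside, 34 genes had 4 pairs, led by rank sum by ST3GAL6, TP53TG3D, ZEB2-AS1, KU-MEL-3, LINC00486, LIMS1, SLC7A5, CORO2B, STARD13 and PLCB4. The 10 kb limit also mattered: pairs of MME at 9682 bp and of CARD14 at 9810 bp were just inside, and a NEDD4L pair at 10202 bp was just outside. Near-identical copies can share reads, and TP53TG3, REXO1L2P, RNU1-2 and RNU2-1 belong to multicopy families, so their counts are uncertain.

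The gene most like each member, by counts of pairs within 1 kb, from 1 to 10 kb, from 10 to 50 kb and farther, was sought over the whole genome in these 2 samples. NEDD4L, with 1, 5, 7 and 5 pairs, was closest to QPCT with 1, 3, 7 and 6, a summed difference of 3. FYN (0, 5, 2 and 0) differed by 1 from SYTL2 (1, 5, 2 and 0), and MTUS1 (1, 4, 5 and 0) by 1 from LIMS1 (0, 4, 5 and 0). MME (1, 4, 1 and 1) and CARD14 (1, 4, 0 and 0) each differed by 1 from LOC340357 (1, 4, 0 and 1). These choices were nearly arbitrary for CARD14, where 8 genes tied, and were unique for NEDD4L and MME. For FYN 2 genes tied and for MTUS1 3, and ties were settled by the lowest rank sum.

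Among 28 relatives of the 5 genes, 4 had a pair within 10 kb (14.3%, 5.70% to 31.5%), against 10.1% of protein-coding genes. At any distance 13 had 1 (46.4%, 29.5% to 64.2%), against 28.6%. None had more than 2 within 10 kb. In the SRC family of tyrosine kinases, 3 of 8 had such a pair, among them SRC itself in its promoter, 929 bp upstream (54.4 and 77.0), and BLK, with 2 pairs, the stronger 7765 bp downstream (55.0 and 64.7). Of the 5 CARD proteins and signalling partners of CARD14, only CARD10 had 1, in an intron 6913 bp downstream (29.2 and 5.67), while BCL10 had 2 pairs farther off and MALT1 had none. In the NEDD4 family of ubiquitin ligases 0 of 8 had a pair within 10 kb, though SMURF1 had 6 and WWP2 had 4 at greater distances. The M13 peptidases, relatives of MME, had 0 of 6 within 10 kb, with distant pairs at ECE1 and PHEX, and MTUS2 had 2 distant pairs.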

How the data were processed

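Binding sites were analysed in the 2 TBX3-3xHA ChIP samples. Per the file headers, the authors annotated the summit file of each sample with annotatePeaks.pl of HOMER against hg38 and did not pool samples. The submitters' processing notes name FastQC 0.11.7, cutadapt 2.8, Bowtie2 2.3.5, MACS2 2.1.2 and SAMtools 1.9. The peak threshold and the control are not given in the sources used here. The peak score was deposited without a stated scale and only ranks peaks within a list. Gene names, signed distances and repeats are those deposited.

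Here, summits were paired when each was the nearest of the other list within 200 bp (Python 3.11.15, pandas 2.3.3, numpy 2.4.6), a step tested on simulated data. Start sites were computed from position and distance. Gene spans, transcripts and promoter sequences came from RefSeq (GRCh38.p14), and intervals are 95% Wilson intervals (scipy 1.17.1). No test was run, since there is a single ChIP condition. Named sites are all pairs within 10 kb, the best pair of each gene and its highest summit without a partner, and a few others shown for contrast were chosen after their values were seen. The members and lists were chosen with earlier results of these data known. The values of 1 relative with a pair within 10 kb are not reported here. Motifs at the sites themselves need a genome sequence, which was not used here. Alternatives covered the pairing distance, score limits, distance limits, repeats, gene spans and each replicate alone.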

Additional observations from a re-analysis of the deposited data

How the results depend on the processing

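No paired analysis was possible because the input samples were not analysed here and no comparison between groups was made. Of 88 alternatives, 51 left a count within 1.5 times its value or a share within its interval, and 37 moved it. The 26 pairs within 10 kb became 13 when summits had to lie within 50 bp and 0 at the same base, 6 among the 5000 highest scores, 13 within 5 kb of a start and 4 within 1 kb. They were 31 in replicate 2 alone and 27 in replicate 1 alone. The stricter limits on pairing distance, score and distance to a start keep fewer sites by construction, whereas a replicate alone needs no partner. In the top 5000 FYN and MTUS1 had none. The share of distant summits with a partner moved in replicate 1 to 62.5% within 50 bp, and to 100% in the top 5000, inside the gene spans and without MME, the last an alternative chosen after seeing the data. In replicate 2 it moved to 100% in the top 5000, which holds 5 distant summits in each list. At the same base both shares were 0%. The planned share of sites with a T-box motif was not run, as it needs a genome sequence. Read depth, which limits how many weak sites can be called, was unknown.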
